A study of Mus musculus with 16 samples.

Results

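The miR-199 and miR-214 microRNAs were followed in mouse serum across 4 ages. They were taken as every array feature named for either arm of the miR-199 and miR-214 hairpins, which gave 5 of the 1881 mouse miRNAs on the array. Their full names are mmu-miR-199a-3p, mmu-miR-199a-5p, mmu-miR-199b-5p, mmu-miR-214-3p and mmu-miR-214-5p, and the species prefix is left out below. They were chosen by their signals and detection calls across the 4 ages on these same arrays, so their levels and differences by age are given below as a description with errors and without p-values. Of the 5, miR-199a-3p, miR-199b-5p and miR-214-3p passed the filter for dim miRNAs, which asked for detection in at least 3 mice of some age, and miR-199a-5p and miR-214-5p did not. All 3 met the filter only at 4 and 8 weeks. The filter thus selected them where they were high, and their ranks, overlaps and calls among the tested miRNAs are descriptions. The filter left 285 miRNAs in all.

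Serum came from blood drawn from the heart of male mice aged 4, 8, 36 and 58 weeks, with 4 mice per age and 1 array per mouse. No treatment or genotype separates the ages, and the strain is not given in the sources used here. RNA (1.0 ng per array) was labelled with Cy3 and hybridised to a 1-colour Agilent miRNA array, on which each member was read by 30 spots. Serum miRNA is a mixture released by blood cells and many tissues, so fewer releasing cells and less RNA released per cell cannot be told apart. The erythrocyte miRNA miR-451a was detected on all 16 arrays. Its log2 level minus that of miR-23a-3p, used as a measure of red cell RNA, averaged 3.35 ± 0.74, 2.89 ± 0.62, 3.26 ± 0.90 and 2.73 ± 0.24 (SD, n = 4 each) at 4, 8, 36 and 58 weeks. All arrays of 4 and 8 weeks lay on slide 1 and all arrays of 36 and 58 weeks on slide 2, so in comparisons across slides the 2 cannot be told apart. The scanner software (Feature Extraction) put a mark for evaluation on 3 arrays. These were 36-week replicate 4, 4-week replicate 1 and 4-week replicate 4, whose negative-control spots had SDs of 59.3, 19.1 and 7.45 intensity units, against 1.82 to 4.45 on the others.

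MicroRNAs are short RNAs that guide Argonaute proteins to messenger RNAs, mainly by pairing of the seed, bases 2 to 8 of the mature strand. Each hairpin precursor can yield a mature strand from its 5p and its 3p arm. In the mouse, miR-199a and miR-214 are encoded together in Dnm3os, a long transcript antisense to the dynamin 3 gene that is expressed in mesenchyme and the developing skeleton, and both have been studied in bone formation, fibrosis and the stressed heart.

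The mature strands are shown first because they set what an array probe can tell apart. Sequences and positions are RefSeq's on GRCm38.p6, where 4 of the 5 members matched a mature entry, and capitals mark the seed.
miR-214-3p: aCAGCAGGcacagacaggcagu
miR-214-5p: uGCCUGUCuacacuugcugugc
miR-199a-3p: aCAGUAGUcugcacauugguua
miR-199a-5p: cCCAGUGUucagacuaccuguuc

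The 3p arms of miR-199a and miR-214 share their first 4 bases, and their seeds are alike at 5 of 7 positions, so the 2 strands belong to different seed groups. The seed of miR-214-3p was shared with miR-761, which was on the array and detected on 0 of 16 arrays. The seed of miR-199a-3p was shared with miR-199b-3p, whose 22 bases are identical to those of miR-199a-3p. No array feature carried the name miR-199b-3p, so the signal named miR-199a-3p can come from the miR-199b hairpin as well.

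The hairpins are shown with the annotated mature arms in capitals, because they place the members at 4 loci rather than 1. The first pair lies on the plus strand of chromosome 1, within both Dnm3 and Dnm3os, and 5444 bases separate the hairpins. Mir199a-2 is at chr1:162217814-162217923 and Mir214 at chr1:162223368-162223477.
Mir199a-2: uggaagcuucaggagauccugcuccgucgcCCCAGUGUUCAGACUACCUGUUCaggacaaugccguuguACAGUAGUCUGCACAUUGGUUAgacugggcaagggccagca
Mir214: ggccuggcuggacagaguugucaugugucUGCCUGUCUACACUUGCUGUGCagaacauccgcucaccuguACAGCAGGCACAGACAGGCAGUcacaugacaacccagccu

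A second miR-199a hairpin, Mir199a-1, lies within Dnm2 on the minus strand at chr9:21496495-21496564, and both of its mature arms have the same letters as those of Mir199a-2. The miR-199b hairpin, Mir199b, lies within Dnm1 on the plus strand at chr2:32318460-32318569.
Mir199a-1: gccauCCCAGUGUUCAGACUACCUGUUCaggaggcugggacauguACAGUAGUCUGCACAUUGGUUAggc
Mir199b: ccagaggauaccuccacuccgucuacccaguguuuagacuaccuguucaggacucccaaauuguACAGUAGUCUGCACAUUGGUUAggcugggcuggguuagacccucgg

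Of the members, only miR-214-3p and miR-214-5p can thus be assigned to Dnm3os from sequence alone. miR-199b-5p is named for the Dnm1 locus. The miR-199a arms can come from either of their 2 loci, and the 3p strand also from Mir199b. On its 5p side the Mir199b hairpin reads nearly the same as miR-199a-5p and holds the same seed letters. Probe sequences were not available, so whether the probes of miR-199a-5p and miR-199b-5p tell these strands apart was not tested.

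The members differed first in whether they were detected. Feature Extraction called miR-199a-3p detected on 11 of 16 arrays, miR-199b-5p on 9, miR-214-3p on 6, miR-199a-5p on 4 and miR-214-5p on 0. By age, miR-214-3p was detected in 3, 3, 0 and 0 of 4 mice at 4, 8, 36 and 58 weeks. The calls for miR-199a-3p were made in 4, 4, 2 and 1 mice, and those for miR-199b-5p in 4, 3, 1 and 1. Those for miR-199a-5p came in 2, 2, 0 and 0 mice. Detection in these 4 members was thus more frequent on slide 1 than on slide 2. Detection over all mouse miRNAs also differed by age. The number detected per array averaged 289.75 ± 50.1, 216.5 ± 23.8, 226 ± 61.8 and 219 ± 47.6 (SD, n = 4 each) at 4, 8, 36 and 58 weeks. Among all mouse miRNAs, 136 had a detection call on 6 or more of the 8 slide 1 arrays. Of these, 2 had none on slide 2, namely miR-5622-3p and miR-214-3p. No miRNA, 0 of 1881, showed the reverse pattern, and the number called on 6 or more slide 2 arrays was not counted.

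**Figure D1:**
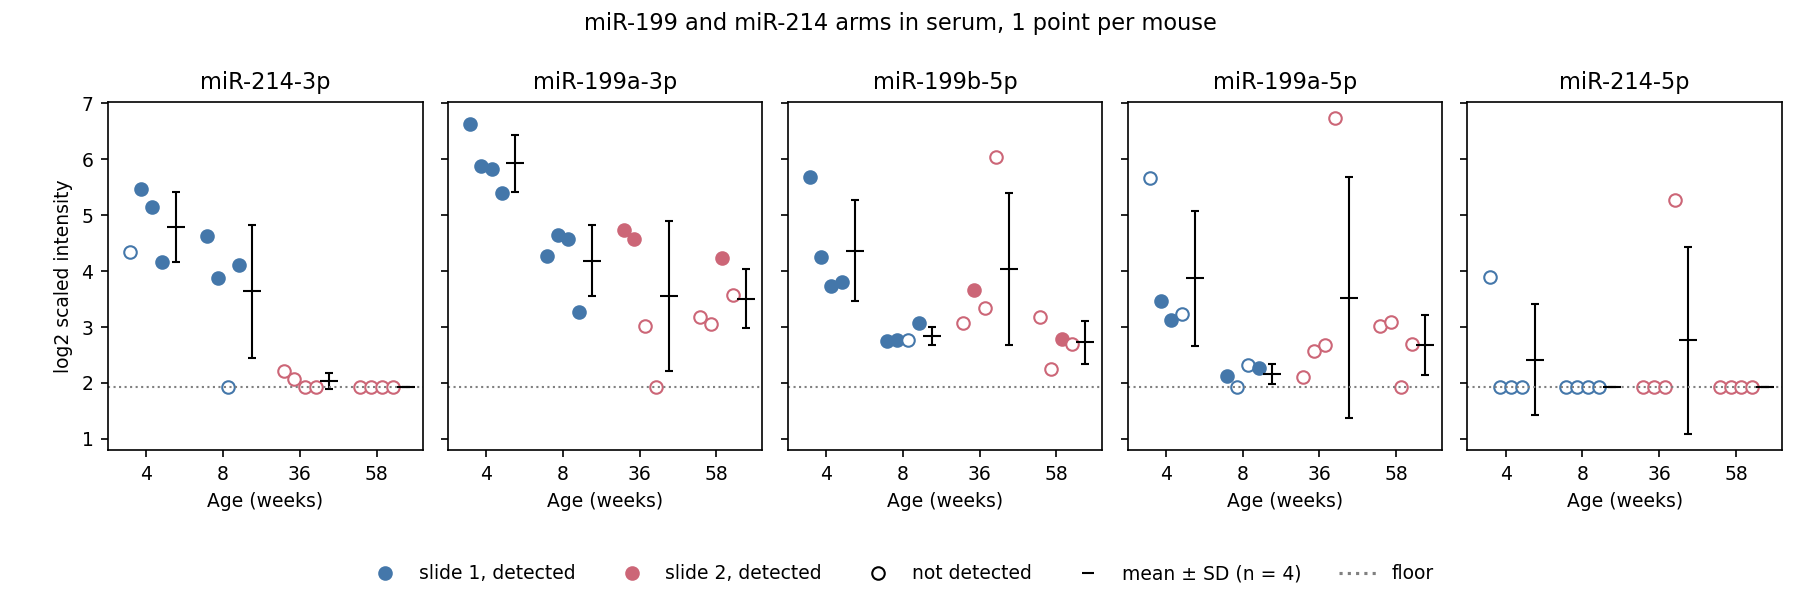
Log2 scaled intensity of the 5 members (y axis) by age in weeks (x axis), 1 point per mouse, filled where the miRNA was called detected and coloured by slide, with the mean ± SD (n = 4) beside each age and the floor of 1.92 dotted. miR-214-3p lies at or near the floor in all 8 mice of 36 and 58 weeks, and 36-week replicate 4 stands high for miR-199b-5p and miR-199a-5p (6.04 and 6.74) but at the floor for both 3p arms.

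miR-214-3p, the arm with no detection call at 36 or 58 weeks, was read as follows after the arrays were scaled to an equal 75th percentile. Scaled intensities in replicates 1 to 4 were 20.3, 44.1, 35.6 and 17.9 at 4 weeks and 24.7, 14.7, 3.31 and 17.3 at 8 weeks. They were 4.66, 4.20, -2.59 and -140.2 at 36 weeks and -3.11, -10.4, 1.81 and -4.73 at 58 weeks, where a negative value is a signal under the array's background. All 4 mice of 4 weeks lay above all mice of 36 and 58 weeks, while 8-week replicate 3 lay among the older mice. Taken 1 age at a time, 4 (1.4%) and 8 (2.81%) of the 285 tested miRNAs lay wholly under 4 weeks at 36 and 58 weeks. Values under 3.79 were set to that floor before log2 was taken. On this scale the means were 4.78 ± 0.62, 3.64 ± 1.18, 2.03 ± 0.14 and 1.92 ± 0 (SD, n = 4 each) at 4, 8, 36 and 58 weeks. At the 2 older ages the SD is set by the floor, on which 2 of 4 and 4 of 4 arrays lay, and understates the spread. Among all tested miRNAs, 0 of 285 (0%) had every mouse of 36 and 58 weeks below every mouse of 4 and 8 weeks.

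Because miR-214-3p was detected on no array of the older ages, the sizes of its differences from the younger ages are given only as approximate bounds. Between 58 and 4 weeks the bound was 3.16-fold, with 58 weeks lower. It lay between 2.40-fold and 3.52-fold when any 58-week array was omitted. Between 36 and 4 weeks the bound was 1.91-fold, with 36 weeks lower. That bound lay between 1.31-fold and 4.61-fold when any 36-week array was omitted, and was highest without replicate 4, the array of highest background. Between 58 and 8 weeks the bound was 1.43-fold, with 58 weeks lower (between 1.08-fold and 1.59-fold when any 58-week array was omitted). No fold is given for 36 against 8 weeks, where the bound lay under 1.

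These bounds rest on the dimmest miRNA called detected on each array, or on the member's own signal or the floor where either was higher. That lowest detected signal, on the scaled intensity scale, was 3.96, 7.43, 6.12 and 202 on replicates 1 to 4 of 36 weeks, and 11.4, 11.1, 0.283 and 11.96 on those of 58 weeks. The dimmest 4-week value of miR-214-3p, 17.9, lay above 7 of these 8 values and under that of 36-week replicate 4. On slide 1 the lowest detected signal was 24.5 on 4-week replicate 1 and between 0.574 and 3.62 on the others. The miR-214-3p signal of 20.3 on 4-week replicate 1 was not called detected. Signals above an array's lowest detected one were not always called either: miR-199b-5p was at 8.42 and 10.2 on 36-week replicates 1 and 3 without a call. The lowest detected signal is therefore not the level that an array could detect, and the bounds are approximate rather than strict lower limits.

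The 2 probes of miR-214-3p were then set apart, since the detection call is made for the miRNA and not for the probe. Each probe has 15 spots per array, or 60 per age. Of the spots of probe A_54_P2620, 60, 57, 31 and 10 were positive and significant against their background at 4, 8, 36 and 58 weeks. For probe A_54_P2619 the counts were 35, 45, 1 and 1. Both probes thus had fewer such spots at the 2 older ages. The share over all miRNA spots was not counted, and these calls are made against backgrounds that differed between arrays. On 4-week replicate 1, marked for evaluation, A_54_P2619 had 0 of 15 such spots. At 36 weeks the spots of A_54_P2620 were concentrated in replicates 1 and 2, with 15 of 15 spots in each and mean intensities of 6.52 and 11.4. Replicates 3 and 4 had 1 and 0 such spots. At 58 weeks all 10 were on replicate 3, whose mean intensity was 3.69. A low signal of this probe was therefore present in 3 older mice in which the miRNA was not called detected. The slope of log2 scaled intensity per doubling of age was -0.89 for A_54_P2620 and -0.38 for A_54_P2619. For A_54_P2619 the means at 36 and 58 weeks were both the floor of 3.79, and for A_54_P2620 the 58-week mean was 4.08. The sizes of these slopes are therefore set largely by the floor.

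**Figure D2:**
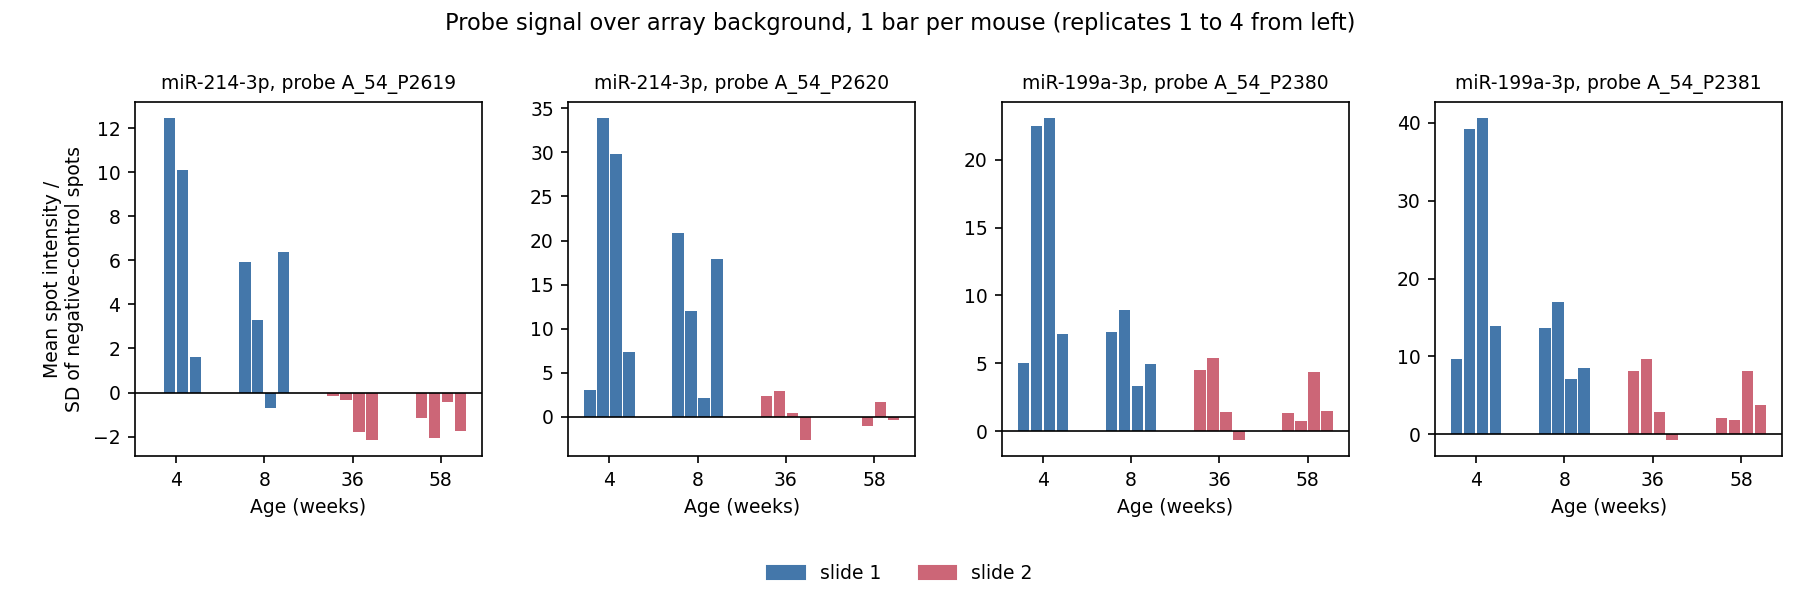
Mean spot intensity of each probe of miR-214-3p and miR-199a-3p divided by the SD of the negative-control spots of its array (y axis, a separate scale per probe) by age in weeks (x axis), 1 bar per mouse with replicates 1 to 4 from the left, coloured by slide. Probe A_54_P2619 is below 0 in all 8 mice of slide 2, and 36-week replicate 4 is below 0 for all 4 probes.

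miR-199a-3p, the strand shared with miR-199b, differed most between 4 weeks and the later ages. Its scaled intensities were 98.5, 58.6, 56.7 and 41.8 at 4 weeks and 19.3, 24.9, 23.9 and 9.60 at 8 weeks. They were 26.5, 23.8, 8.08 and -40.5 at 36 weeks and 9.03, 8.29, 18.7 and 11.9 at 58 weeks. Every mouse of 4 weeks lay above every older mouse, and the 3 older ages overlapped each other. Taken 1 age at a time, 11 (3.86%), 4 (1.4%) and 8 (2.81%) of the 285 tested miRNAs lay wholly under 4 weeks at 8, 36 and 58 weeks. The share that did so at all 3 ages was not counted. Mean log2 levels were 5.93 ± 0.51, 4.19 ± 0.64, 3.56 ± 1.34 and 3.51 ± 0.53 (SD, n = 4 each) at 4, 8, 36 and 58 weeks. The 4-week mean therefore stood apart from the next, by 1.74, while neighbouring means from 8 weeks on differed by less than the SD within an age.

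The differences within slide 1 do not involve the slide. At 8 weeks miR-199a-3p averaged 4.19, against 5.93 at 4 weeks, a log2 difference of -1.74 ± 0.61 (SE), and the 2 ages did not overlap. For miR-199b-5p the means were 2.84 at 8 weeks and 4.37 at 4 weeks, a difference of -1.53 ± 0.62 (SE), again with no overlap. For miR-214-3p they were 3.64 at 8 weeks and 4.78 at 4 weeks, a difference of -1.15 ± 0.53 (SE), and the ages overlapped. No overlap with the older age lower was found in 11 of the 285 tested miRNAs (3.86%). The median difference over all tested miRNAs was -0.72, and 229 of 285 read lower at 8 weeks. That median was -1.20 without scaling and 0.25 under quantile normalization, so its sign depended on the normalization. Quantile normalization followed the floor, so that floored values on an array were tied. The part of these ties in the change was not tested. In limma 0 of 285 passed this comparison at an adjusted p of 0.05 (0%), and 6 had an unadjusted p under 0.05. Under quantile normalization the 3 member differences shrank to -0.40 for miR-199a-3p, -0.012 for miR-214-3p and 0.090 for miR-199b-5p, which turned the sign of the last.

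The comparison within slide 2 is that of the 2 older ages. At 58 weeks miR-199a-3p averaged 3.51, against 3.56 at 36 weeks, a difference of -0.05 ± 0.61 (SE). miR-199b-5p averaged 2.73 at 58 weeks and 4.03 at 36 weeks, a difference of -1.30 ± 0.62 (SE). The miR-199b-5p difference was -0.42 without 36-week replicate 4. miR-214-3p was undetected at both ages. miR-199a-3p was detected in 2 mice at 36 weeks and 1 at 58 weeks, and miR-199b-5p in 1 at each. Both differences thus rest mostly on undetected signals. Again 0 of 285 (0%) passed in limma, with 5 at an unadjusted p under 0.05.

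miR-199b-5p, the 5p arm of the Dnm1 hairpin, was measured at scaled intensities of 51.2, 19.0, 13.3 and 14.05 at 4 weeks and 6.69, 6.84, 6.83 and 8.38 at 8 weeks. At 36 weeks they were 8.42, 12.7, 10.2 and 65.8, and at 58 weeks 9.02, 4.74, 6.93 and 6.50. The highest value at 4 weeks and the highest at 36 weeks were both on arrays marked for evaluation, and the second of these was not called detected. Mean log2 levels were 4.37 ± 0.90, 2.84 ± 0.15, 4.03 ± 1.36 and 2.73 ± 0.38 at 4, 8, 36 and 58 weeks (SD, n = 4 each). The 36-week mean was 1.19 ± 0.62 (SE) above the 8-week mean, and 0.01 above it without 36-week replicate 4. With the older age higher, 7 of 285 miRNAs (2.46%) did not overlap between 36 and 8 weeks, miR-199b-5p among them with a lowest 36-week value of 3.074 against a highest 8-week value of 3.067.

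The 2 remaining members were at the limit of the array. miR-199a-5p, whose hairpins also give miR-199a-3p, had mean log2 levels of 3.87 ± 1.20, 2.16 ± 0.18, 3.53 ± 2.16 and 2.68 ± 0.53 at 4, 8, 36 and 58 weeks (SD, n = 4 each). Its highest values, 6.74 and 5.66, were those of 36-week replicate 4 and 4-week replicate 1, and neither was called detected. Its brighter probe, A_54_P2377, had 60, 54, 48 and 36 of 60 spots positive and significant at 4, 8, 36 and 58 weeks. miR-214-5p, the other arm of the miR-214 hairpin, lay at the floor on all arrays of 8 and 58 weeks and on 3 of 4 arrays of 4 and of 36 weeks. It exceeded the floor on the same 2 arrays, 4-week replicate 1 and 36-week replicate 4. No age difference of this arm was detectable at these signals.

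Over all 4 ages, slopes were fitted on log2 age, in log2 scaled intensity per doubling of age. miR-214-3p had a fitted slope of -0.75 ± 0.12 (SE), the lowest of the 285 tested. It was detected on none of the 8 older arrays and lay at the floor on 6 of them, so the size, SE and rank of this slope are set by the floor. The slope was -1.19 with the floor divided by 4 and -0.39 with the brightest probe, where the floor was 15.4. The slope of miR-199a-3p was -0.56 ± 0.15, the third lowest, and that of miR-199b-5p -0.19 ± 0.17, at rank 51 from the lowest. Both were also undetected on most of the 8 older arrays. The median slope over all tested miRNAs was 0.12, and 120 of 285 slopes were below 0. At an adjusted p of 0.05 in limma, 1 of 285 miRNAs passed the trend (0.351%), and it was miR-214-3p. This comparison chose the members, so the count is a description. The count was 6 without scaling, 8 with the brightest probe, 187 with array weights, 146 without the 3 marked arrays and 3 without 36-week replicate 4, and each of these took in both miR-214-3p and miR-199a-3p. The miR-214-3p call did not hold under quantile normalization, with the deposited total gene signal, with slide as a block (0 passed each, with 24, 30 and 11 at an unadjusted p under 0.05) or with normexp background correction, where 15 other miRNAs passed as higher and 2 as lower. The median slope over all tested miRNAs was -0.08 without scaling.

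**Figure D3:**
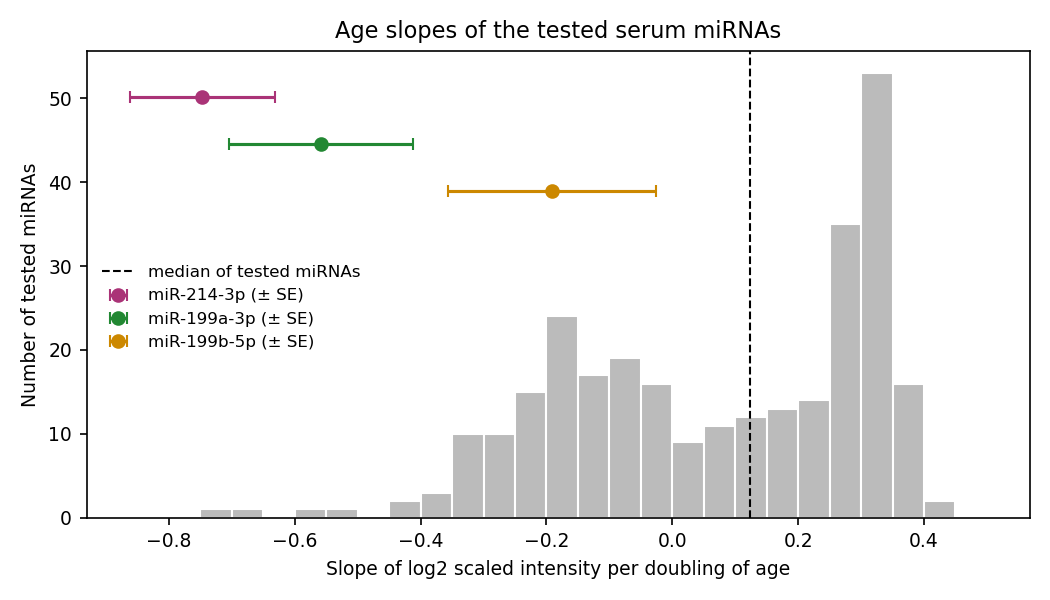
Histogram of the slopes of the 285 tested miRNAs (x axis, log2 scaled intensity per doubling of age; y axis, number of miRNAs) with the median of 0.12 dashed, and the slopes ± SE of the 3 tested members above it. miR-214-3p and miR-199a-3p lie in the sparse left end, and miR-199b-5p within the main body.

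Between the widest ages, miR-214-3p averaged 1.92 at 58 weeks, the floor itself, and 4.78 at 4 weeks. miR-199a-3p averaged 3.51 at 58 weeks and 5.93 at 4 weeks, a log2 difference of -2.42 ± 0.61 (SE). For miR-199b-5p the means were 2.73 at 58 weeks and 4.37 at 4 weeks, a difference of -1.64 ± 0.62. At 58 weeks miR-199a-3p and miR-199b-5p were each detected in 1 of 4 mice. Both differences therefore rest mostly on undetected signals at 58 weeks, and their sizes are approximate. None of the 3 members overlapped between the ages, where 8 of 285 miRNAs (2.81%) did not overlap with the older age lower. In limma 1 of 285 passed (0.351%), again miR-214-3p, with a p that takes the floor as a measured level. This call did not hold when 4-week replicate 2 or 3 or any of the 58-week arrays was omitted. Nor did it hold with the replicate number as a block (0 of 285 passed; 12 had an unadjusted p under 0.05), under quantile normalization, with the total gene signal or with normexp.

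At 36 weeks miR-214-3p averaged 2.03, with 2 of 4 arrays at the floor, against 4.78 at 4 weeks. miR-199a-3p averaged 3.56 at 36 weeks and 5.93 at 4 weeks, a log2 difference of -2.37 ± 0.61 (SE), and miR-199b-5p 4.03 at 36 weeks and 4.37 at 4 weeks, a difference of -0.33 ± 0.62. At 36 weeks miR-199a-3p was detected in 2 of 4 mice and miR-199b-5p in 1, so the sizes of these differences are approximate. Without 36-week replicate 4, where miR-199a-3p was raised to the floor, they were -1.95 and -1.13. miR-214-3p and miR-199a-3p did not overlap between the ages. The same held for 4 of 285 tested miRNAs (1.4%) with the older age lower. Again 1 of 285 passed in limma (0.351%), and it was miR-214-3p. This call held only when the array omitted was 4-week replicate 4 or 8-week replicate 1, 3 or 4, and it did not hold under the replicate block (0 of 285 passed; 9 had an unadjusted p under 0.05), under quantile normalization, with the total gene signal or with normexp. These comparisons share their 4-week arrays and lie across slides.

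Against 8 weeks, miR-214-3p has only the bounds given above. The log2 differences for 58 minus 8 weeks were -0.68 ± 0.61 (SE) for miR-199a-3p and -0.11 ± 0.62 for miR-199b-5p. For 36 minus 8 weeks they were -0.63 ± 0.61 for miR-199a-3p and 1.19 ± 0.62 for miR-199b-5p. Both members were undetected on most arrays of 36 and 58 weeks. The lower ends of the 8-week group came from replicate 3 for miR-214-3p and replicate 4 for miR-199a-3p. In limma 0 of 285 passed for 58 against 8 weeks (0%; 15 with an unadjusted p under 0.05) and 0 for 36 against 8 weeks (0%; 85). Without 8-week replicate 3, 1 miRNA passed for 58 against 8 weeks, miR-214-3p. The array omitted there was the 8-week array on which miR-214-3p lay at the floor, and all 4 arrays of 58 weeks lay at the floor. That p takes the floor as a measured level, and the pass is a description only.

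The brightness of the arrays is given beside these slopes. The 75th percentile signal before scaling averaged 9.99 ± 0.33, 9.51 ± 0.34, 9.45 ± 0.40 and 8.96 ± 0.22 on the log2 scale at 4, 8, 36 and 58 weeks (SD, n = 4 each). Without scaling the slopes were -0.98 for miR-214-3p, -0.78 for miR-199a-3p and -0.40 for miR-199b-5p. With slide as a block they were -0.83 ± 0.44, -1.21 ± 0.52 and -1.65 ± 0.49 (SE), and the median slope over all tested was -0.58. With normexp background correction, which raised the floor to 71.4, the slopes were -0.0064, -0.015 and 0.090. Slopes of miR-214-3p and miR-199a-3p were below 0 in all 28 alternatives, and those of miR-199b-5p in 27 of 28. This tally is a description and no support, since the alternatives share the values that chose the members. Of them, 16 only leave out 1 array, and the filter, variance model and replicate block leave the slope unchanged.

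**Figure D4:**
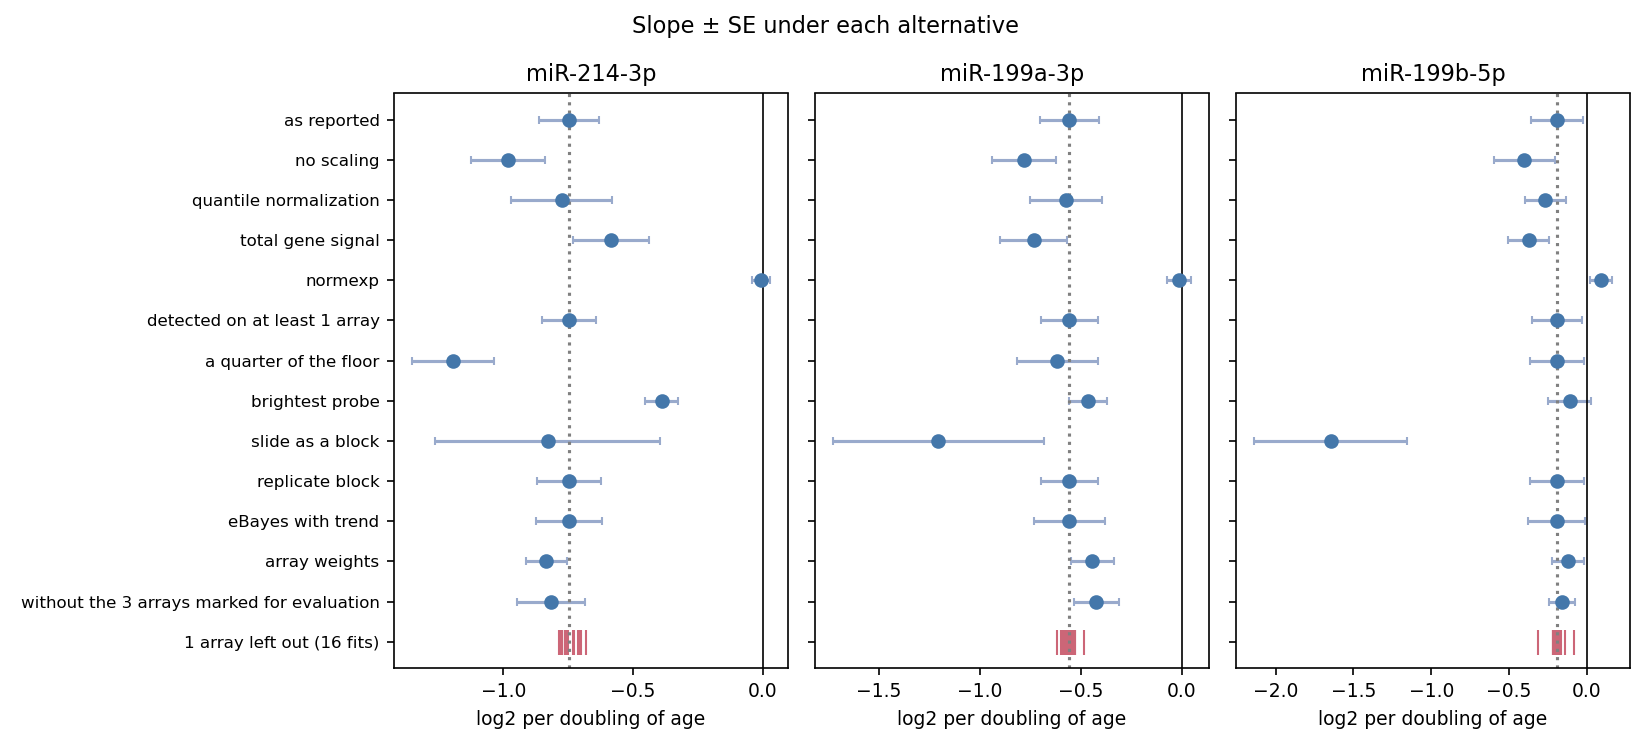
Slope ± SE (x axis, log2 scaled intensity per doubling of age) of the 3 tested members under each alternative (rows), with red ticks for the 16 fits that leave out 1 array, the reported slope dotted and 0 as a solid line. The slopes of miR-214-3p and miR-199a-3p lie left of 0 throughout and come nearest to it under normexp.

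Whether the members also vary together among mice of 1 age was tested on deviations from the age means, which the choice of members did not use. miR-214-3p lay at the floor on 7 of the 16 arrays, which limits its deviations. At 58 weeks its log2 values had an SD of 0, so permutation there changed nothing, and at 36 weeks the SD was 0.14. The tests of its pairs below therefore cannot decide whether it varies with the other members. Over 16 mice, miR-199a-3p and miR-214-3p had a Pearson r of -0.071 (permutation within ages, 2-sided p = 0.767) and a Spearman rho of 0.13 (p = 0.609). For miR-199a-3p with miR-199b-5p r was -0.39 (permutation p = 0.407) and rho -0.11 (p = 0.808), and for miR-199b-5p with miR-214-3p r was -0.11 (permutation p = 0.603) and rho -0.16 (p = 0.550). Adjusted over the 3 pairs, each Pearson p was 0.767 and each Spearman p 0.808, and no pair passed. Levels of miR-199a-3p and miR-214-3p over all mice had an r of 0.67, which includes the differences between ages.

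These correlations depended on single arrays and on the scaling. Without the 2 mice farthest from the median of the first-named member, r was -0.18 for miR-199a-3p with miR-214-3p, 0.39 for miR-199a-3p with miR-199b-5p and 0.14 for miR-199b-5p with miR-214-3p. In the same order r was -0.30, 0.45 and -0.12 on slide 1 (8 arrays, permutation p = 0.550, 0.290 and 0.878). On slide 2 it was -0.70 for miR-199a-3p with miR-199b-5p (8 arrays, permutation p = 0.153), and no value is given for miR-214-3p, which was detected on none of those arrays. Over the arrays on which both members of a pair were detected, r was 0.28 (6 arrays), 0.49 (9 arrays) and 0.34 (6 arrays), all above 0 where the values over 16 arrays were below it. Under quantile normalization all 3 were positive and passed, at 0.46, 0.75 and 0.73 (permutation, adjusted p = 0.0186, 0.0052 and 0.0052). That normalization followed the floor, so that floored values on an array took 1 tied value. The deviations of miR-199b-5p had an r of 0.85 with those of the log2 SD of negative-control spots over the 16 arrays, against -0.49 for miR-199a-3p and -0.42 for miR-214-3p. The part of background in these results was not tested.

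**Figure D5:**
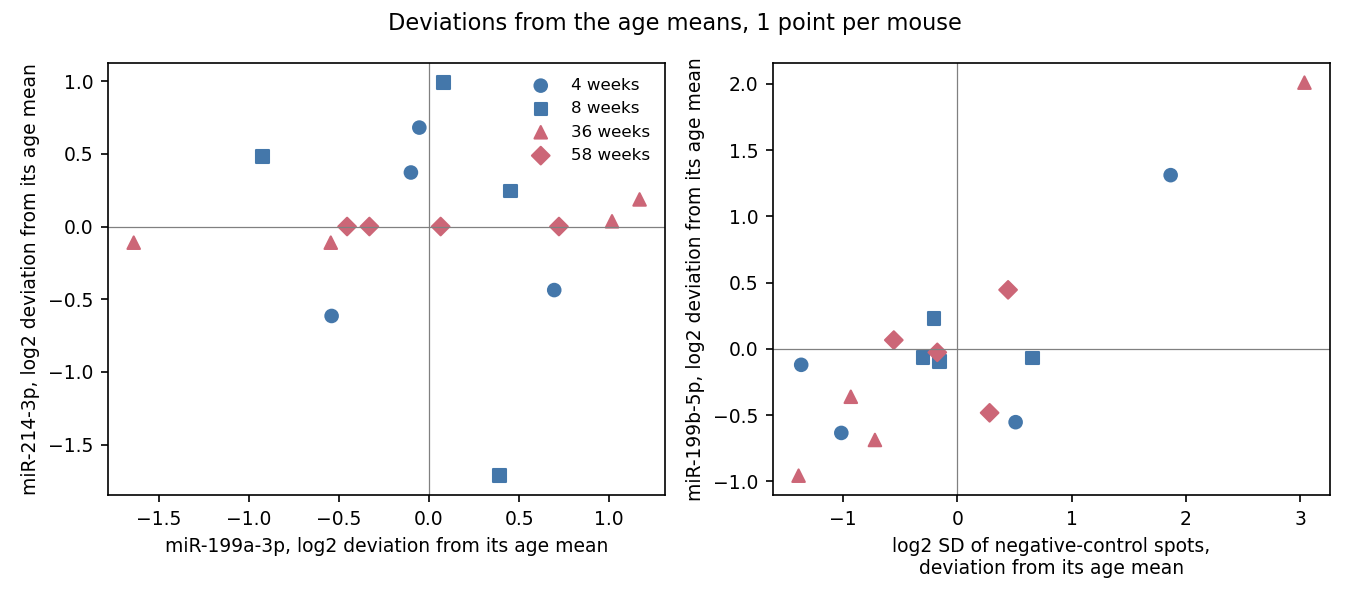
Left, deviations from the age mean of log2 scaled intensity of miR-214-3p (y axis) against miR-199a-3p (x axis). Right, those of miR-199b-5p (y axis) against deviations of the log2 SD of negative-control spots (x axis). Each point is a mouse, with shapes for age and colours for slide. The left panel shows no common direction, and in the right panel the 2 highest points are 36-week replicate 4 and 4-week replicate 1.

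The miRNAs whose log2 levels over the 16 arrays were most like those of miR-214-3p were miR-181b-5p (Pearson r = 0.83), miR-711 (0.83), miR-3547-5p (0.82), miR-7018-5p (0.81) and miR-714 (0.76). The median over all 284 other tested miRNAs was -0.17. All but miR-181b-5p averaged exactly the floor at both 36 and 58 weeks, as miR-214-3p did at 58 weeks, and the 5 were detected on 5 to 9 arrays. Those most like miR-199a-3p were miR-140-5p (0.86), miR-27b-3p (0.84), miR-497a-5p (0.81), miR-23b-3p (0.77) and miR-140-3p (0.76), against a median of -0.087. The second set held both arms of miR-140, which is abundant in cartilage. These correlations share the arrays, their scaling and their floor, and are given without a p.

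Other miRNAs of possible source tissues were read beside the members. A list of 14 miRNAs of mesenchyme and connective tissue had 7 tested members, of which 5 had slopes below 0 and 2 above, with a median of -0.07 against 0.12 over all tested miRNAs. Within it miR-140-3p had a slope of -0.69 ± 0.18 (SE) and miR-140-5p one of -0.41 ± 0.19, while miR-21a-5p, common in fibroblasts and many other cells, had 0.24 ± 0.12. The summed scaled intensity of the list had ranges of 979 to 1677, 612 to 871, 899 to 1422 and 1005 to 1186 at 4, 8, 36 and 58 weeks. The sum thus overlapped between 58 and 4 weeks and was lower at 8 than at 4 weeks. It is weighted to bright members, and miR-21a-5p had a mean log2 level of 9.36 at 58 weeks and 8.43 at 4 weeks.

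The other lists were mixed in direction. Of 4 tested erythrocyte miRNAs 2 had slopes below 0, with a median of 0.02, and miR-451a had -0.09 ± 0.10 (SE). Of 3 platelet and endothelial miRNAs 2 were below 0, with a median of -0.06, and of 5 leukocyte miRNAs 1 was, with a median of 0.27. Of 3 striated muscle miRNAs 1 was below 0, with a median of 0.15, and of 2 liver miRNAs 1, with a median of 0.05. Over the 6 lists 0 of 24 tested members passed the trend in limma, and 5 had an unadjusted p under 0.05. The summed erythrocyte signal was 4492 to 7846 at 58 weeks and 5151 to 8180 at 4 weeks, and the leukocyte signal 331 to 414 at 58 weeks and 138 to 327 at 4 weeks. The part of these cell types in the member signals was not tested.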

How the data were processed

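Each array has 1 deposited file of scanner output. Per the file headers it was made with Agilent Feature Extraction 11.5.1.1 (11.5 in the submitters' processing notes). Spot intensities after background subtraction, detection calls and spot flags are used as the authors deposited them, and the headers record no scaling between arrays. No spot was saturated. Outlier spots (2.32% to 4.48% per array) were left out, and the intensity was averaged over spots, then probes. Each array was scaled to an equal 75th percentile of the 24 miRNAs called on every array, values under the floor of 3.79 (the median over arrays of the lowest positive signal of a detected miRNA) were raised to it, and log2 was taken from these deposited intensities. The 285 miRNAs detected on 3 or more arrays of an age were fitted with limma 3.58.1 in R 4.3.3 (1 mean per age, or a slope on log2 age), with Benjamini-Hochberg adjustment within each comparison. A bound sets the brighter age's mean log2 level, floored values included, against a mean for the dimmer age. Each array of the dimmer age entered with the highest of its lowest detected signal, the member's own signal and the floor. Arrays of the brighter age without detection are included, so the bound is approximate and not a strict lower limit. Co-variation used 100000 permutations within ages. The code was tested on simulated data. The number of arrays limits the precision.

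The members, the tests and the lists of other miRNAs were chosen with earlier results of these data known. Named besides the members were the 5 tested miRNAs most correlated with miR-214-3p and with miR-199a-3p, up to 4 per list by the smallest trend p, miR-451a and miR-23a-3p. miR-5622-3p and miR-761 were named after their values were seen. Alternatives covered scaling, background correction, total gene signal, filter, floor, probe choice, blocks for slide and replicate number, variance model, array weights and leaving out arrays. Replicate numbers did not pair the mice: of 24 pairs of arrays sharing a number, 11 had deviations correlated over 0.1.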

Additional observations from a re-analysis of the deposited data

Results flagged for a closer look

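Of 29 sets of 4 values tested, each 1 measure at 1 age, 7 had a single array far from the rest. For independent values without ties, about 1 in 20, or 1.45, would be flagged. The sets here share arrays and some hold values tied at the floor, so 7 cannot be set against 1.45. On the log2 scale miR-199a-5p was 6.74 on 36-week replicate 4 (2.10 to 2.69 on the other 3) and 5.66 on 4-week replicate 1 (3.12 to 3.46). miR-214-5p was 5.27 on 36-week replicate 4 and 3.90 on 4-week replicate 1. The other 3 arrays of each age lay at the floor of 1.92, so that any value above it was flagged. None of these 4 values was called detected. miR-199b-5p was 3.07 on 8-week replicate 4, against 2.74 to 2.77 on the other 3. Negative-control spots had an SD of 59.3 intensity units for 36-week replicate 4, against 2.76 to 4.39 for the other 3, and of 3.54 for 8-week replicate 3, against 1.82 to 2.01. The second is the 8-week array on which miR-214-3p lay at the floor.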

How the results depend on the processing

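The number of miRNAs passing the trend, 1 as reported, was 6 without scaling, 0 under quantile normalization, 0 with the total gene signal, 17 with normexp, 8 with the brightest probe, 0 with slide as a block, 187 with array weights and 146 without the 3 arrays marked for evaluation. With 1 array left out it was 1 to 3. Lower and higher calls split as 2 and 15 with normexp, 5 and 3 with the brightest probe, 55 and 132 with array weights and 49 and 97 without the marked arrays. For 58 against 4 weeks, 1 as reported, it was 3, 0, 0 and 0 under the first 4 of these, 2 with detection on 1 array, 4 with the brightest probe, 0 with the replicate block, 177 with array weights, 9 without the 3 marked arrays and 0 to 3 with 1 array left out. For 36 against 4 weeks, 1 as reported, it was 3 without scaling, 0 under quantile normalization, 0 with the total gene signal, 2 with detection on 1 array, 4 with the brightest probe, 0 with the replicate block, 12 with array weights, 5 without the 3 marked arrays and 0 to 2 with 1 array left out. Counts reported as 0 became 1 with detection on 1 array for 8 against 4 weeks. For 58 against 36 weeks they became 43 with array weights and 2 without the marked arrays. For 58 against 8 weeks they became 193 and 4, and 0 to 1 with 1 array left out, and for 36 against 8 weeks 180 with array weights. Except where the floor is named below, the cause was not tested.

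Slopes of miR-214-3p, miR-199a-3p and miR-199b-5p were -0.98, -0.78 and -0.40 without scaling, -0.58, -0.73 and -0.37 with the total gene signal, and -0.0064, -0.015 and 0.090 with normexp, whose offset of 50 raised the floor to 71.4. With slide as a block those of miR-199a-3p and miR-199b-5p were -1.21 and -1.65. The slope of miR-214-3p was -1.19 with the floor divided by 4 and -0.39 with the brightest probe, where the floor was 15.4. The replicate block left all 3 slopes at -0.75, -0.56 and -0.19. It changed no other call than the 2 given above.

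The correlation of deviations turned positive for miR-199a-3p with miR-199b-5p under quantile normalization (0.75), with the total gene signal (0.44) and without 36-week replicate 4 (0.25; -0.66 to 0.25 with 1 array left out). It did so for miR-199a-3p with miR-214-3p without scaling (0.092), under quantile normalization (0.46), with the floor divided by 4 (0.47) and without 4-week replicate 1 or 8-week replicate 3 (0.0092 and 0.081; -0.17 to 0.081 with 1 array left out). For miR-199b-5p with miR-214-3p it was 0.036 without scaling, 0.73 under quantile normalization and 0.17 without the 3 marked arrays. Scaling to the 75th percentile over all mouse miRNAs was not run, since that percentile was not above 0 on some arrays. The members' signals lay near background on many arrays, which limits every difference among the older ages.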
